A study of Mus musculus with 6 samples.

Results

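Complex I, or NADH dehydrogenase, is the largest enzyme of the mitochondrial respiratory chain, and most of its subunits are encoded in the nucleus. The transcripts of 36 nuclear-encoded subunits were taken by gene symbol, with assembly factors left out, from an FPKM table of 54532 genes in mouse myocardium. FPKM counts sequenced fragments relative to gene length and to the size of the library. All 36 genes were in the table, and all 36 passed the filter on low values (1 FPKM or more in 3 or more libraries), among 10460 tested genes. The 36 genes lie on 15 chromosomes.

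The 6 libraries came from hypertrophic hearts of wild-type C57BL/6 mice aged 18 weeks. The hearts of 3 had received AAV9-EGFP, an adeno-associated virus of serotype 9 carrying the gene for a green fluorescent protein, and these are the controls. The other 3 had received AAV9-anti-miR-199a TuDs, the same kind of vector carrying tough decoys, which are hairpin RNAs that bind a microRNA and block it. The labels give neither the sex of the mice, nor how hypertrophy was brought about, nor the viral dose, nor the promoters in the vectors. They number the replicates of each group but do not say that each is a separate animal, so p-values measure the spread between these 6 samples. There was no group without hypertrophy and none without virus.

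Complex I takes electrons from NADH in its matrix arm, which holds a flavin and a chain of iron-sulphur clusters. It passes them to ubiquinone and pumps protons through its membrane arm. The core subunits do the chemistry, and the many small accessory subunits hold the arms together and are needed for assembly. The membrane arm's core is encoded by the mitochondrial genome, so the nuclear core genes all belong to the matrix arm. Heart muscle is among the tissues richest in this enzyme.

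The decoys were directed at miR-199a, whose hairpins give a mature strand from each arm. The RefSeq sequences (GRCm38.p6) are printed 5′ to 3′ with the seed, bases 2 to 8, in capitals, because this is the part that pairs with target transcripts.
mmu-miR-199a-3p: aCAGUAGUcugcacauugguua
mmu-miR-199a-5p: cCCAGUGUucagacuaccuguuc
Neither the mature microRNA nor the decoy was measured by this assay. The hairpin gene Mir199a-1 had 0 to 2 reads per library, and Mir199a-2 had 0.

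The libraries differed in ways that the groups do not name. FPKM multiplied by gene length and divided by a step fitted to each library gave whole reads. By these the libraries held 18.0 to 18.2 M reads (M, megareads) for the controls and 15.2 to 16.7 M for the TuD group. A member had between 241 reads (Ndufb2) and 26349 in a library, and at least 1987 when Ndufb2 is set aside. FPKM divided by a scaling factor for each library are called normalised FPKM. Their sum over 4 Y-linked transcripts was 8.16 to 9.74 in the controls and 0.0256, 0.00706 and 12.6 in TuD replicates 1, 2 and 3, and the labels give no sex. Xist, a noncoding RNA encoded on the X chromosome, was at 0 in every control and at 1.43, 0.127 and 0.0167 in TuD replicates 1, 2 and 3. Whether the libraries differ in sex was not tested.

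Transcripts of 29 of the 36 subunits were higher in the TuD group (limma on log2 of normalised FPKM plus 0.5, adjusted p under 0.05), none was lower, and 7 did not pass. At an unadjusted p under 0.05, 31 were higher and 0 lower, and no share over all tested genes is given here for that threshold. Limma-voom on the recovered reads also called 29 higher (15.2% of all tested genes) and 0 lower. Over all tested genes 15.0% were called higher and 14.3% lower by limma at an adjusted p under 0.05. The members' median log2 fold change, TuD minus control, was 0.69, against 0.01 over all tested genes, and single members ranged from -0.24 to 1.56. Among the members 22 lay above the 90th percentile of fold change of all tested genes, and 6 had a rise of at least 2-fold, which 2.50% of all tested genes had. In 32 members all 3 TuD values lay above all 3 control values, a pattern found in 23.5% of tested genes. In Ndufa10 all 3 TuD values lay below the controls, TuD replicate 3 by a very small margin. That pattern was found in 24.4% of tested genes. In Ndufs1, Ndufa9 and Ndufa12 the groups overlapped.

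**Figure D1:**
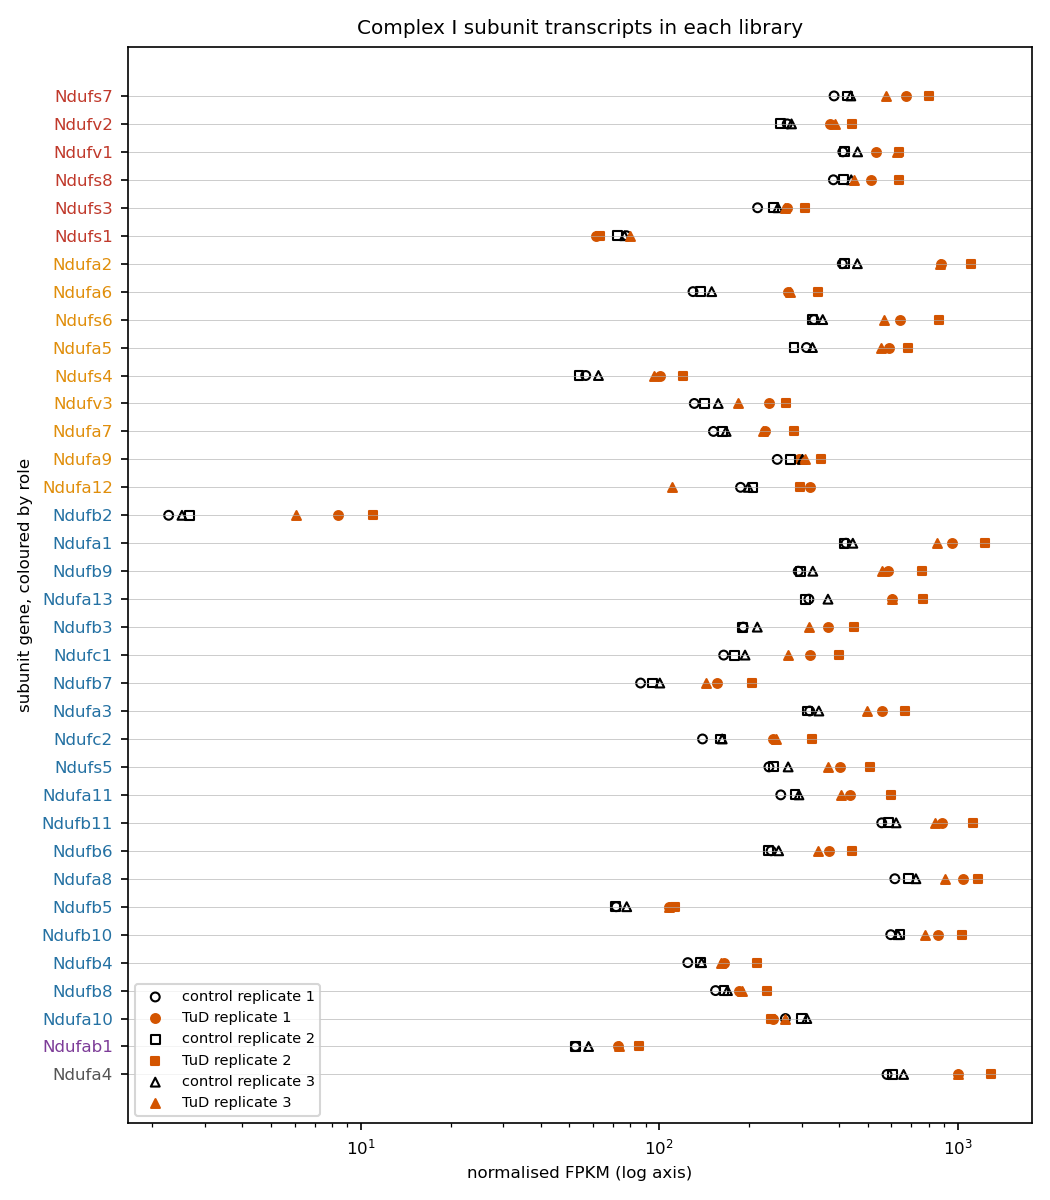
Normalised FPKM (log axis) of each of the 36 subunit genes in each of the 6 libraries, open black symbols for controls and filled orange symbols for the TuD group, with gene names coloured by role. In 32 genes every TuD value lies to the right of every control value, and TuD replicate 2 (squares) is the highest of the 3 TuD libraries in 33.

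The summed level of the 36 transcripts was 9375, 9797 and 10485 normalised FPKM in the controls, with a mean of 9886 ± 560.2 (SD, n = 3). It was 15540.3, 19048 and 14499 in the TuD group, with a mean of 16362 ± 2384 (SD, n = 3), 1.66 times the control mean. Every TuD sum lay above every control sum. The members moved together within a group as well. TuD replicate 2 was the highest TuD library in 33 members and TuD replicate 3 the lowest in 25, and control replicate 3 was the highest control in 32. The median log2 ratio of the members to their control mean was 0.67, 0.94 and 0.55 in the 3 TuD libraries and lay between -0.08 and 0.09 in the controls. With the presence of Y-linked transcripts as a covariate, a fit whose group difference rests on TuD replicate 3 alone, 11 members were called higher (6.22% of all tested genes) and Ndufa12 lower (5.06%), with a member median of 0.55. Without TuD replicate 3, 31 members were called higher (16.3% of all tested genes), with a median of 0.81. The median coefficient of variation of a member was 6.60% among controls and 14.9% among TuD libraries.

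Markers of the cell types in heart tissue were read beside these values. The 8 cardiomyocyte markers summed to 24257 to 25490.0 normalised FPKM in the controls and 25920 to 32280 in the TuD group. Of these, 4 were higher and none lower, among them Myl2, the ventricular myosin light chain (log2 fold change 0.77, SE 0.17, adjusted p = 0.0140). The other 4, among them Myh6, the main myosin heavy chain of the mouse heart (log2 fold change 0.05, SE 0.14, adjusted p = 0.817), did not pass. Rescaled to TPM (each library set to the same sum), Pln was still higher (0.68, adjusted p = 0.0141). Myl2 (adjusted p = 0.0801), Tnnt2 and Tnni3 lost their calls. Ryr2 (-0.67, adjusted p = 0.0140), Actc1 (-0.60, 0.0185) and Actn2 (-0.38, 0.0487) were lower, as were 40.2% of all tested genes. With quantile normalization Myl2 (adjusted p = 0.248), Pln, Tnnt2 and Tnni3 lost their calls. Myh6 (-0.52, adjusted p = 0.0220) and Actn2 (-0.42, 0.0164) were lower (16.1%). Blood markers summed to 1142 to 1604 and 1374 to 3292, with 2 of 5 higher, and adipocyte markers to 61.6 to 73.8 and 126 to 160.3, with both of the 2 tested of 5 higher. The defining adipocyte gene Adipoq was at 0 in 2 controls, and its highest TuD value was 0.902. Fabp4, which is on both the adipocyte and the endothelial list, made up most of the adipocyte sum, and without it that sum was 0.125 to 0.848 in controls against 3.96 to 11.9 with TuDs. Endothelial markers summed to 235 to 285 and 287 to 398 (2 of 6 higher, Fabp4 among them, and 174 to 211 and 166 to 243 without it), smooth muscle and pericyte markers to 141 to 187 and 147 to 275 (2 of 5 tested higher), fibroblast markers to 125 to 137 and 115 to 167 (1 of 7 higher and 1 lower), and macrophage markers to 137 to 159 and 146 to 281 (none of 6, with 2 at an unadjusted p under 0.05 and 1 called by limma-voom). Their part in the complex I result was not tested. In whole tissue, a change in the number of cells of a type and a change in RNA per cell cannot be told apart.

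Of the 6 core subunits of the matrix arm 3 were higher in the TuD group and 3 did not pass, and their median log2 fold change was 0.41. With TPM or quantile normalization none of the 6 was called higher by limma. Rescaled to TPM (each library set to the same sum) 0 of the 6 were higher at an unadjusted p under 0.05 and Ndufs1 was called lower, and with quantile normalization 2 were higher and 1 lower at an unadjusted p under 0.05. Ndufv1, which binds NADH and the flavin, measured 412, 418 and 462 normalised FPKM in control replicates 1 to 3 and 534, 634 and 628 in TuD replicates 1 to 3. The groups did not overlap, and Ndufv1 rose (log2 fold change 0.47, SE 0.12, adjusted p = 0.0236). This call was lost without control replicate 1 (adjusted p = 0.0732), control replicate 2 (0.0877) or control replicate 3 (0.0568), with TPM (0.084, adjusted p = 0.681) and with quantile normalization (0.088, adjusted p = 0.562). Ndufv2, its partner with an iron-sulphur cluster of its own, was at 268, 254 and 277 in the controls and 372, 441 and 389 in the TuD group. It rose (log2 fold change 0.58, SE 0.11, adjusted p = 0.00893), with all 3 TuD values above the controls, but did not pass with TPM (0.20, adjusted p = 0.268) or quantile normalization (0.23, adjusted p = 0.0808).

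Ndufs7, which carries the last iron-sulphur cluster before ubiquinone, was at 385, 427 and 438 normalised FPKM in the controls and 673, 802 and 575 in the TuD group. It rose (log2 fold change 0.70, SE 0.15, adjusted p = 0.0110), but did not pass with TPM (0.31, adjusted p = 0.118), with quantile normalization (0.30, adjusted p = 0.0503) or with the trend over transcript length removed (0.30, adjusted p = 0.0507). Ndufs8, which carries the preceding pair of clusters, measured 383, 414 and 439.9 in controls against 512, 637 and 451 with TuDs, and did not pass (log2 fold change 0.36, SE 0.15, adjusted p = 0.104). Its TuD values all lay above the controls, TuD replicate 3 by the smallest margin, and without that library it passed (0.47, adjusted p = 0.0379). Ndufs3, a core subunit without a cluster of its own, measured 214, 241 and 249.8 in controls against 269, 309 and 264 with TuDs (log2 fold change 0.26, SE 0.12, adjusted p = 0.135).

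Ndufs1 is the largest subunit of the complex and holds several of its clusters. Its transcript measured 77.6, 72.5 and 76.5 normalised FPKM in the controls and 61.5, 63.5 and 79.8 in the TuD group. TuD replicates 1 and 2 were the 2 lowest of the 6 values and TuD replicate 3 the highest, and the difference did not pass (log2 fold change -0.15, SE 0.12, adjusted p = 0.369). Ndufs1 and Ndufa10 were the only members with a log2 fold change below 0.

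Of the 9 accessory subunits of the matrix arm 7 were higher and 2 did not pass, and their median log2 fold change was 0.86. Ndufa2, a small thioredoxin-fold subunit, measured 411, 417 and 461 normalised FPKM in the controls and 877, 1108 and 869.7 in the TuD group. Its lowest TuD value was well above its highest control value, and it rose (log2 fold change 1.14, SE 0.14, adjusted p = 0.00241). Ndufa6, one of the LYR-motif subunits that dock the acyl carrier protein, was at 129.8, 137 and 149.9 in controls against 269.7, 341 and 274 with TuDs. It rose by a similar amount (log2 fold change 1.08, SE 0.13, adjusted p = 0.00241). Ndufs6, a zinc-binding subunit added late in assembly, measured 330.0, 327 and 353 in controls against 642, 867 and 565 with TuDs. TuD replicate 2 stood highest, and the rise was 1.01 ± 0.17 (SE, adjusted p = 0.00534) on the log2 scale.

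Ndufa5, a helical subunit on the matrix arm, was at 311, 283 and 326 normalised FPKM in the controls and 588, 682 and 554 in the TuD group, a rise of 0.98 ± 0.13 (SE, adjusted p = 0.00267). Ndufs4 joins late in assembly, and its loss in mice and people causes Leigh syndrome. It measured 56.7, 53.8 and 62.5 in controls against 101, 121 and 96.0 with TuDs, and rose in every TuD library (log2 fold change 0.86, SE 0.12, adjusted p = 0.00358). Ndufv3, a small subunit beside the flavin-binding pair, was at 131, 141 and 158 in controls against 233, 266 and 183 with TuDs (log2 fold change 0.65, SE 0.15, adjusted p = 0.0169). This call was lost without control replicate 1 (adjusted p = 0.0561), control replicate 2 (0.0590) or TuD replicate 1 (0.0529). It was also lost with TPM (0.26, adjusted p = 0.179) and with quantile normalization (0.36, adjusted p = 0.0632).

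Ndufa7, a small accessory subunit of this arm, measured 152, 163 and 168 normalised FPKM in the controls and 226, 283 and 223 in the TuD group and rose (log2 fold change 0.59, SE 0.13, adjusted p = 0.0115). Ndufa9, which lies near the ubiquinone site at the junction of the arms, was at 249, 275 and 302 in controls against 293, 349 and 307 with TuDs, with overlapping groups (log2 fold change 0.20, SE 0.12, adjusted p = 0.248). Ndufa12 (ENSMUSG00000020022, chromosome 10, 94198720 to 94221443, plus strand), a matrix arm subunit that takes the place of the assembly factor Ndufaf2, gave the widest spread. It measured 187, 206 and 199 in the controls and 320.2, 296 and 110.5 in the TuD group. TuD replicates 1 and 2 were the 2 highest of the 6 values and TuD replicate 3 was the lowest, and the difference did not pass (log2 fold change 0.15, SE 0.36, adjusted p = 0.779). Without TuD replicate 3 it was higher (0.64, adjusted p = 0.00618), and with the Y-linked covariate it was called lower (-0.83, adjusted p = 0.0197).

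**Figure D2:**
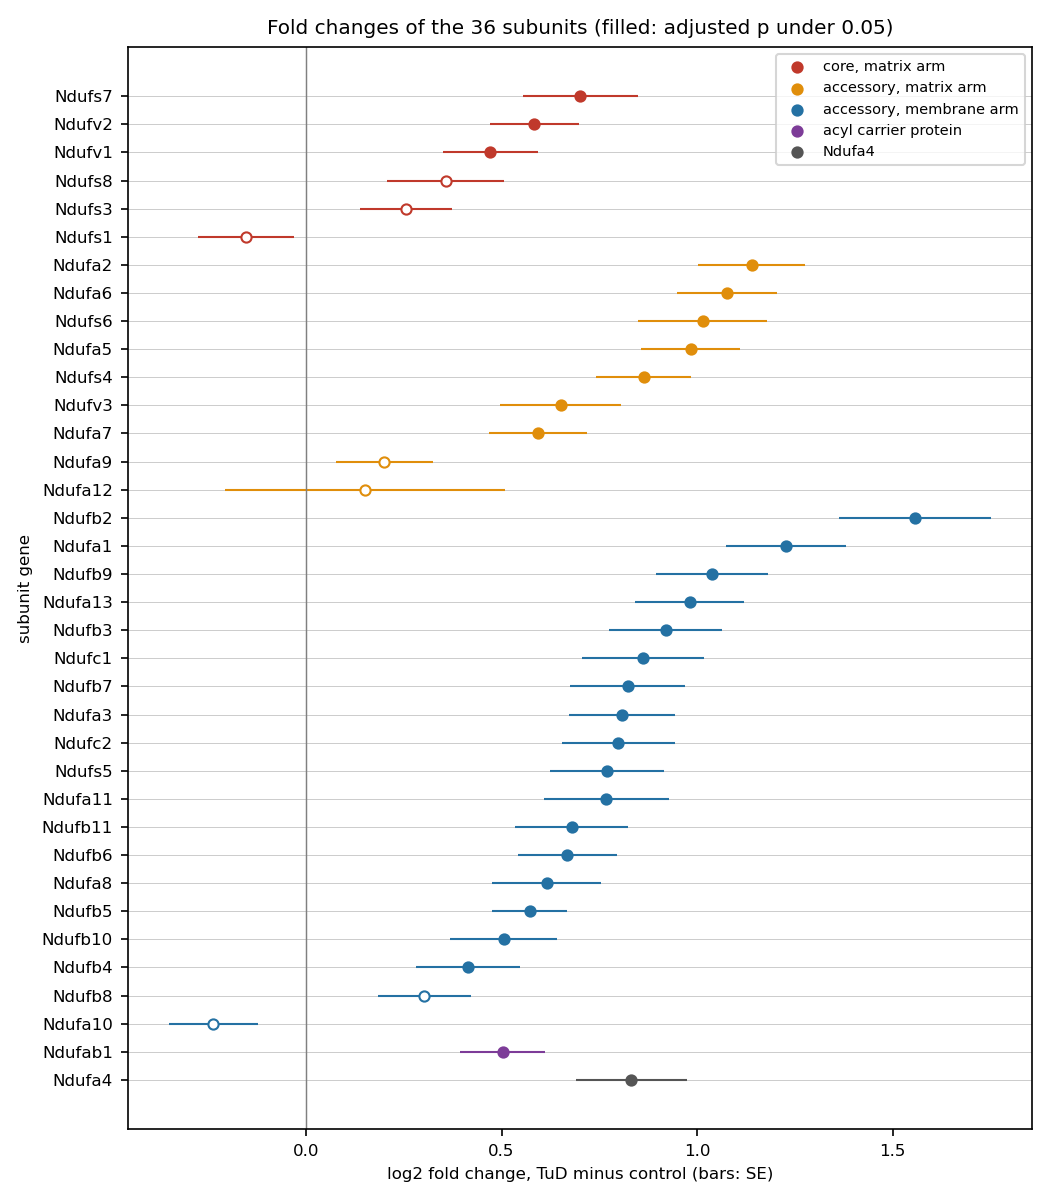
Log2 fold change (TuD minus control) of each of the 36 subunit genes with its standard error as a bar, coloured by role and sorted within role, filled where the adjusted p was under 0.05. Of the points 29 are filled and to the right of 0, Ndufs1 and Ndufa10 lie to the left of 0, and Ndufa12 has the longest bar.

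Of the 19 accessory subunits of the membrane arm 17 were higher and 2 did not pass, and their median log2 fold change was 0.77. Ndufa1 (ENSMUSG00000016427, chromosome X, 37187588 to 37191163, minus strand), a small single-helix subunit encoded on the X chromosome and needed for assembly, measured 422, 416 and 445 normalised FPKM in the controls and 959.6, 1233 and 851 in the TuD group. Its TuD values were all far above the controls (log2 fold change 1.23, SE 0.15, adjusted p = 0.00250). Ndufb9, a LYR-motif subunit that docks the acyl carrier protein on this arm, was at 292, 298 and 327 in controls against 585, 758 and 559 with TuDs (log2 fold change 1.04, SE 0.14, adjusted p = 0.00349). Ndufa13, also known as GRIM-19, measured 317, 309.6 and 368 in controls against 604, 764 and 603 with TuDs (log2 fold change 0.98, SE 0.14, adjusted p = 0.00368). The other X-linked member, Ndufb11, a single-helix subunit, was at 557, 587 and 622 in controls against 886, 1122 and 839 with TuDs. Both X-linked members rose, Ndufb11 by 0.68 ± 0.14 (SE, adjusted p = 0.0114). Ndufb11 lost its call with TPM (0.29, adjusted p = 0.146) and with quantile normalization (0.24, adjusted p = 0.0723).

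The largest fold change of the 36 belonged to Ndufb2 (ENSMUSG00000002416, chromosome 6, 39592574 to 39603382, plus strand), an accessory subunit of the membrane arm. It measured 2.27, 2.66 and 2.51 normalised FPKM in the controls and 8.41, 11.0 and 6.05 in the TuD group. All 3 TuD values were above the controls (log2 fold change 1.56, SE 0.19, adjusted p = 0.00249). Its level was far below the rest of the members, with a control mean of 2.48 ± 0.199 (SD, n = 3) against 54.2 ± 3.24 for the next lowest, Ndufab1. In the GENCODE M21 annotation 145 of its 5628 exonic bases are shared on the same strand with Gm42420, which was listed at 0 in all 6 libraries. Whether the reads of this row cover the whole coding transcript is not known from the table.

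The membrane arm subunits with the lowest fold changes were Ndufb10, Ndufb4, Ndufb8 and Ndufa10. Ndufb10, a subunit with disulphide bonds on the side of the intermembrane space, measured 597, 641 and 630.3 normalised FPKM in the controls and 859.6, 1032 and 777 in the TuD group (log2 fold change 0.50, SE 0.14, adjusted p = 0.0277). Its call ended without any one of control replicates 1, 2 and 3 and TuD replicate 1, with adjusted p between 0.0621 and 0.0854. It also ended with TPM (0.12, adjusted p = 0.543) and with quantile normalization (0.066, adjusted p = 0.590). Ndufb4, a small membrane subunit, was at 125, 138 and 139 in controls against 165, 212 and 161 with TuDs, just inside the threshold (log2 fold change 0.41, SE 0.13, adjusted p = 0.0484). It no longer passed without any one library other than TuD replicate 3, with adjusted p between 0.0721 and 0.134. Nor did it pass with TPM (0.026, adjusted p = 0.898) or with quantile normalization (0.15, adjusted p = 0.237). Ndufb8, often used as the antibody target for assembled complex I, measured 154, 165 and 169 in controls against 186, 229.7 and 189 with TuDs. Its groups did not overlap, yet the difference did not pass (log2 fold change 0.30, SE 0.12, adjusted p = 0.0884).

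Ndufa10 (ENSMUSG00000026260, chromosome 1, 92439010 to 92473860, minus strand), a nucleoside kinase-like protein on the matrix face of the membrane arm, was the only member with every TuD value below every control. It measured 264.8, 299 and 312 normalised FPKM in the controls and 241, 237 and 264.2 in the TuD group, and the difference did not pass (log2 fold change -0.24, SE 0.11, adjusted p = 0.147). Control replicate 1 and TuD replicate 3 were nearly equal. Their scaling factors were 0.985 and 0.991, so the order of these values rests on the scaling. The remaining 10 membrane arm subunits were all higher, with no overlap between the groups. Their log2 fold changes were 0.92 for Ndufb3, 0.86 for Ndufc1, 0.82 for Ndufb7, 0.81 for Ndufa3, 0.80 for Ndufc2, 0.77 for both Ndufs5 and Ndufa11, 0.67 for Ndufb6, 0.62 for Ndufa8 and 0.57 for Ndufb5. With the trend over transcript length removed, only Ndufb3 and Ndufc1 of these 10 kept their calls. Ndufa8, Ndufb7 and Ndufs5 are twin-CX9C proteins of the intermembrane space, while most of the others cross the inner membrane. Among these 10, Ndufb5 had the tightest TuD values (108, 113 and 108, against 71.7, 71.3 and 77.8 in the controls). Ndufa8 was at 616, 686 and 725 in controls against 1042, 1166 and 906 with TuDs, and it lost its call without control replicate 1 (adjusted p = 0.0516) or control replicate 2 (0.0522). It also lost it with TPM (0.23, adjusted p = 0.237) and with quantile normalization (0.16, adjusted p = 0.209).

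The acyl carrier protein Ndufab1 belongs to both arms of complex I and also serves mitochondrial fatty acid synthesis. It measured 52.4, 52.4 and 58.0 normalised FPKM in the controls and 72.8, 85.4 and 73.2 in the TuD group and rose (log2 fold change 0.50, SE 0.11, adjusted p = 0.0122). It did not pass without control replicate 2 (adjusted p = 0.0515) or with TPM (0.12, adjusted p = 0.492). Its processed pseudogene Ndufab1-ps had reads of its own, at 134, 141 and 164 in controls against 153, 169 and 189.9 with TuDs (log2 fold change 0.22, adjusted p = 0.220). How the counting shared reads between the 2 rows is not given in the sources used here. Ndufa4 was named as a complex I subunit and is now counted with cytochrome c oxidase. It was at 580.0, 603 and 659 in controls against 1002, 1292 and 1004 with TuDs, with no overlap (log2 fold change 0.83, SE 0.14, adjusted p = 0.00616). Ndufa4 did not pass by limma with the trend over transcript length removed (0.19, adjusted p = 0.126).

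Levels differed widely between members. Per kilobase of the deposited gene length, the highest control means were those of Ndufa8 (675 ± 55.2 normalised FPKM, SD, n = 3), Ndufb10 (623 ± 23.0) and Ndufa4 (614 ± 40.7), which did not differ beyond their spread. Of the 36, 35 lay above the 90th percentile of control level over all tested genes, and Ndufb2 was the exception. In 19 members the deposited gene length was over 1.5 times the length of the principal transcript, the main isoform marked in GENCODE M21. For Ndufs8 it was below it (963 against 1005 bases), so the deposited lengths do not follow M21 throughout. Per kilobase of principal transcript Ndufa4 came first (1390.2), before Ndufb10 (1035), Ndufb8 (753), Ndufs7 (728) and Ndufb7 (682), which stood at rank 31 per gene length. Ndufb2 was last on both scales.

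Fold change went with length across these genes. Over the 36 members the log2 fold change had Pearson's r = -0.394 and Spearman's rho = -0.441 with log10 gene length, given as a description across genes that share the same 6 libraries. Without Ndufb2 they were -0.593 and -0.552 (n = 35). Over all 10460 tested genes r was -0.386, close to the members' value. With principal transcript length r was -0.288 for the members (-0.592 without Ndufb2) and -0.442 for 9584 tested genes.

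The members are short. Their median principal transcript is 891.5 bases, against 2862 over tested genes, and 25 of the 36 fall in the shortest decile (93 to 1169 bases). In that decile the median log2 fold change of all genes was 0.46 and 48.8% were higher. Its 25 members had a median of 0.77, with 21 higher and 20 above the decile's own median. The core subunits had longer transcripts (median 1354) than the accessory membrane arm subunits (median 732), so role and length move together. Within the 19 accessory membrane arm subunits r was -0.199 with gene length and 0.051 with transcript length (rho -0.204 and -0.091). Among the longer members, Ndufab1 and Ndufb2 lay in deciles whose medians were -0.13 and -0.15 and rose nonetheless, whereas Ndufa10 and Ndufs1 lay below the medians of theirs (0.01 and -0.06).

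**Figure D3:**
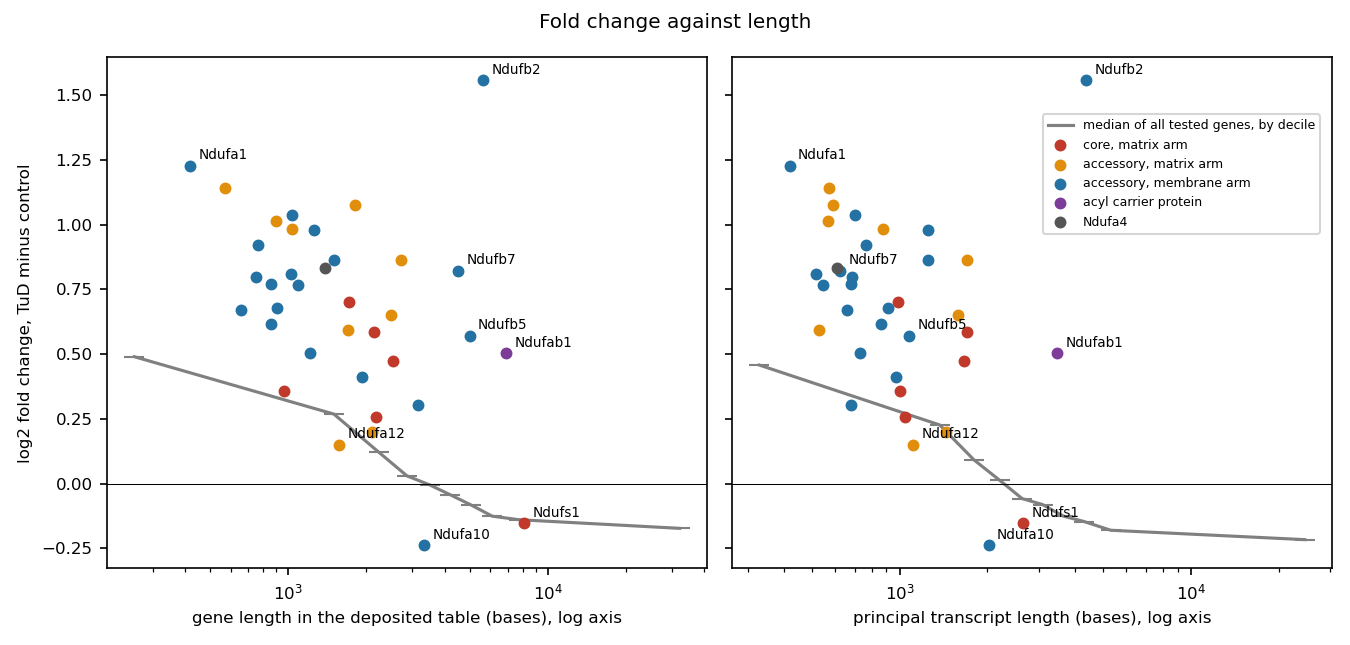
Log2 fold change (TuD minus control) of the 36 members, coloured by role, against deposited gene length (left) and principal transcript length (right), both on log axes in bases, with a grey line for the median of all tested genes in each decile of length. The grey line falls from 0.49 in the shortest decile to -0.17 in the longest by gene length and from 0.46 to -0.22 by transcript length, and most members lie above it.

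With the trend of each library with gene length removed, 24 members were called higher (11.4% of all tested genes), the median was 0.43, and the calls of Ndufa8, Ndufb4, Ndufb6, Ndufb10 and Ndufb11 ended. With the trend over principal transcript length removed, an alternative chosen after seeing the data, 15 members were higher (10.6%) and Ndufb8 was lower (11.5%), with a median of 0.21. The calls that ended were those of Ndufa3, Ndufa4, Ndufa7, Ndufa8, Ndufa11, Ndufb4, Ndufb5, Ndufb6, Ndufb7, Ndufb10, Ndufb11, Ndufc2, Ndufs5 and Ndufs7. The members that kept a rise by this measure were led by Ndufb2 (1.71), Ndufs4 (0.74, adjusted p = 0.00364), Ndufa13 (0.70, 0.00408) and Ndufab1 (0.62, 0.00673). Ndufa1 went from 1.23 to 0.40 (adjusted p = 0.0114), Ndufa7 from 0.59 to -0.12 (0.274) and Ndufb10 from 0.50 to -0.05 (0.681). By role the medians became 0.13 for core subunits, 0.42 for accessory matrix arm subunits and 0.19 for accessory membrane arm subunits. The cause of the length trend was not tested.

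**Figure D4:**
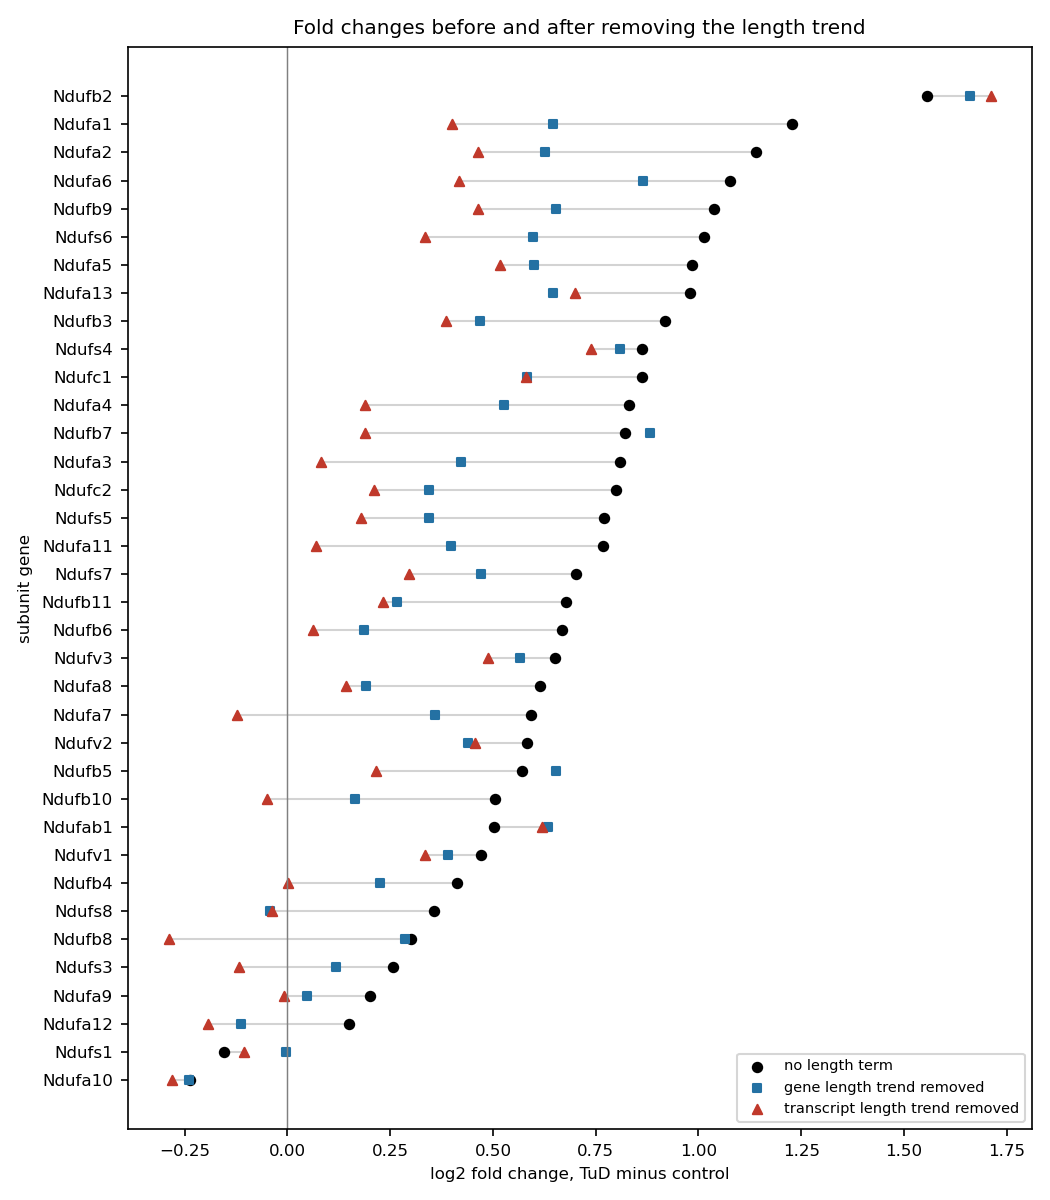
Log2 fold change (TuD minus control) of each of the 36 members with no length term (black), with the gene length trend removed (blue squares) and with the principal transcript length trend removed (red triangles). The members' median moves from 0.69 to 0.43 and to 0.21, while Ndufb2 and Ndufab1 move up. With the transcript length trend removed Ndufa7, Ndufa9, Ndufa12, Ndufb8, Ndufb10, Ndufs3 and Ndufs8 cross to below 0.

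The scaling between libraries mattered too. Rescaled to TPM, where each library sums to the same total, the median of all tested genes was -0.36 and that of the members 0.30. In this scale 14 members were higher (4.19% of all tested genes), and Ndufa10 (-0.63, adjusted p = 0.0106) and Ndufs1 (-0.54, adjusted p = 0.0248) were lower (40.2%). The calls of Ndufa7, Ndufa8, Ndufa11, Ndufab1, Ndufb4, Ndufb5, Ndufb6 and Ndufb10 ended. So did those of Ndufb11, Ndufc2, Ndufs5, Ndufs7, Ndufv1, Ndufv2 and Ndufv3. With quantile normalization 21 members were higher (14.1%), Ndufa10 was lower (-0.58, adjusted p = 0.00911, against 16.1%), and the median was 0.36. Here Ndufa8, Ndufb4, Ndufb10, Ndufb11, Ndufs7, Ndufv1, Ndufv2 and Ndufv3 lost their calls. The 11 members higher on all of these scales and after both length corrections were Ndufa1, Ndufa2, Ndufa5, Ndufa6, Ndufa13, Ndufb2, Ndufb3, Ndufb9, Ndufc1, Ndufs4 and Ndufs6.

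Other genes of complex I were read from lists of assembly factors, mitochondrially encoded subunits and another structural gene. Of 18 tested assembly factors 4 were higher (22.2%, against 15.0% of all tested genes). Of the rest, 2 were lower (against 14.3% of all tested genes) and 12 did not pass. The median of the 18 was 0.19. Ndufaf4, which acts on the early matrix arm module, measured 8.55, 7.06 and 8.22 normalised FPKM in controls against 14.9, 11.8 and 11.4 with TuDs and rose (log2 fold change 0.64, SE 0.13, adjusted p = 0.0110). Tmem126b, of the complex that builds the membrane arm, rose by 0.42 ± 0.11 (SE, adjusted p = 0.0227), and Ndufaf2, which holds the place later taken by Ndufa12, by 0.57 ± 0.15 (SE, adjusted p = 0.0249). Acad9, another member of that membrane arm assembly complex, was at 5.33, 5.14 and 5.51 in the controls and 2.75, 2.83 and 4.09 in the TuD group and fell (log2 fold change -0.67, SE 0.15, adjusted p = 0.0143). On this scaling the factors called moved in both directions, as did the calls over all tested genes. With TPM 6 of the 18 were lower, Acad9 and Foxred1 among them, where 40.2% of all tested genes were called lower. In that scale 0 were higher, against 4.19% of all tested genes, and 0 also at an unadjusted p under 0.05 in limma. Of the 6 calls without TPM (4 higher and 2 lower), leaving out control replicate 1 kept 3, and leaving out TuD replicate 1, or either of the other controls, kept 2. With the transcript length trend removed Ndufaf2 turned to -0.020.

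Of the 7 mitochondrially encoded subunits, which form the core of the membrane arm, 3 were higher (against 15.0% of all tested genes) and 4 did not pass, and their median was 1.10. mt-Nd3 measured 89.1, 110.4 and 28.1 normalised FPKM in controls against 681, 518 and 139.7 with TuDs (log2 fold change 2.48, SE 0.65, adjusted p = 0.0251), and mt-Nd4, a proton-pumping subunit, 7503, 3099 and 6079 in controls against 14797, 9873 and 9715 with TuDs (log2 fold change 1.11, SE 0.34, adjusted p = 0.0401). The standard errors of all 7 were larger than those of every nuclear member other than Ndufa12. Mitochondrial transcripts took 5.31 to 12.0% of a library's reads in the controls and 11.1 to 17.5% in the TuD group. None of the 7 passed after either length correction in limma, where 3 (mt-Nd1, mt-Nd3 and mt-Nd4) had an unadjusted p under 0.05, and limma-voom without the correction called 4. Leaving out TuD replicate 1, TuD replicate 2 or control replicate 3 kept none, and leaving out control replicate 2 kept 1.

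Ndufb1-ps, the row named for the small subunit Ndufb1 and typed as a noncoding RNA in the table, was at 93.0, 94.4 and 107 normalised FPKM in controls against 194, 245 and 186 with TuDs and rose (log2 fold change 1.07, SE 0.13, adjusted p = 0.00249). Complex II also feeds electrons to ubiquinone but pumps no protons. Of its 4 subunits Sdhb, the iron-sulphur subunit, was higher (log2 fold change 0.47, SE 0.13, adjusted p = 0.0337), a call lost without any one library other than TuD replicate 3 (adjusted p from 0.0618 to 0.103), with TPM (0.685) or with quantile normalization (0.573). The flavoprotein Sdha (log2 fold change -0.30, SE 0.15, adjusted p = 0.156), Sdhc (log2 fold change 0.10, SE 0.12, adjusted p = 0.522) and Sdhd (log2 fold change 0.03, SE 0.14, adjusted p = 0.894) did not pass. Sdha was called lower with TPM (-0.69, adjusted p = 0.0141), with quantile normalization (-0.66, adjusted p = 0.0227) and without TuD replicate 3 (-0.45, adjusted p = 0.0252).

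The 3′ UTRs of the members were searched for matches to the printed seeds, as the reverse complement of bases 2 to 8 or of bases 2 to 7 followed by A. For miR-199a-3p (ACTACTG or CTACTGA) none of the 36 members held a match, against 14.8% of 9552 tested genes with an annotated 3′ UTR. For miR-199a-5p (ACACTGG or CACTGGA) 5 members held one, 13.9% against 25.1%. The members' 3′ UTRs are short, with a median of 293.5 bases against 1263. The 5 were Ndufv2, Ndufb5, Ndufab1 and Ndufb2, which were higher, and Ndufa10, which did not pass. The sites of Ndufb5, the only member with 2 separate matches to bases 2 to 8, and that of Ndufa10 are shown 5′ to 3′ with the match in capitals.
Ndufb5 site a: ttggcataACACTGGtgaacata
Ndufb5 site b: atccctgaACACTGGgagtatta
Ndufa10: ccagctccCACTGGAagccccgt
A match is a description of the letters and not a measured binding site.

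Promoters were available for 33 members in the RefSeq table (GRCm38.p6, 250 bases before to 50 after the start), and Ndufs1, Ndufa2 and Ndufb9 had no entry. Motifs of factors known for respiratory genes were searched on both strands. The NRF1 motif (GCGCA, any base, then GCGC) was in 7 of the 33 (21.2%), against 11.1% of 7731 tested genes and 4.78% of all 27025 promoters. The YY1 motif (AAGATGGC) was in 7 (21.2%, against 5.17% and 2.88%), in each beginning at base 23 to 39 with the start counted as 1. The ETS motif (CCGGAAG) was in 4 (12.1%, against 18.9% and 9.12%) and the ERR motif (AAGGTCA) in 3 (9.09%, against 3.07% and 4.66%). No 2 matches in a member's promoter overlapped.

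The promoters of Ndufs6, which rose and was the only member with both the NRF1 and YY1 motifs, and of Ndufa10, with none of the 4, are printed 5′ to 3′ on the minus strand. Ndufa10 is not typical of the promoters with none of the 4. Of the others, Ndufa12 did not pass and all the rest, Ndufa1, Ndufa13 and Ndufb3 among them, were higher. Ndufs6 lies at chr13:73328433-73328732 and Ndufa10 at chr1:92473709-92474008, and capitals mark the motifs.
Ndufs6: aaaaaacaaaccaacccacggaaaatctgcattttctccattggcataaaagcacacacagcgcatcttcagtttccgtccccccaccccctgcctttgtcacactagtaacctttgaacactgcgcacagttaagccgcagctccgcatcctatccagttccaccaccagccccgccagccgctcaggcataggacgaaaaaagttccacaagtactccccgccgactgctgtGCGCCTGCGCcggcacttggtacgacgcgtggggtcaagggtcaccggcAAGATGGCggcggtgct
Ndufa10: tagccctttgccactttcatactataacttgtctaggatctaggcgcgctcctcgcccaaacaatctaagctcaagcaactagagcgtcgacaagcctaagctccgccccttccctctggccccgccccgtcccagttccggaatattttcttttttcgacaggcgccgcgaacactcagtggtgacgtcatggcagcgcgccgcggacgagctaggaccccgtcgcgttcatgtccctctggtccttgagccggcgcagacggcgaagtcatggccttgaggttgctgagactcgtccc
In Ndufs6 the NRF1 match, on the opposite strand, begins 16 bases before the start and the YY1 match at base 34. Of the 7 members with the YY1 motif, 5 were higher (Ndufa3, Ndufc1, Ndufs4, Ndufs6 and Ndufs7) and Ndufa9 and Ndufb8 did not pass. All 7 with the NRF1 motif (Ndufa5, Ndufa6, Ndufa8, Ndufa11, Ndufb4, Ndufs5 and Ndufs6) were higher, among 33 members with a promoter of which 27 were. With TPM 3 of the 7 with the NRF1 motif and 4 of the 7 with the YY1 motif were higher, beside 14 of all 36 members (38.9%). With the transcript length trend removed 3 of each were higher, beside 15 of the 36 (41.7%), and Ndufb8 was lower. Neither YY1 nor NRF1 binding was measured.

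Some members share exonic bases with a neighbour on the opposite strand in GENCODE M21, and the strand setting of the counting is not given in the sources used here. The largest shares were those of Ndufb6 with Smim27 (39.0% of its exonic bases), Ndufa13 with Tssk6 (30.0%), Ndufb11 with Rbm10 (12.9%) and Ndufb5 with Mrpl47 (12.3%). The partners were low, with deposited FPKM of 1.62 to 4.78 for Smim27, 0 to 0.268 for Tssk6, 7.33 to 9.06 for Rbm10 and 4.34 to 6.79 for Mrpl47. On the same strand, Ndufb9 shared 201 of its 1031 exonic bases (19.5%) with Gm49356. Ndufb8 shared 134 of its 3146 (4.26%) with Gm20538. Both partners were listed at 0 in every library. Rows of 2 more processed pseudogenes had reads, Ndufs6b (log2 fold change 0.58, adjusted p = 0.0487) and Ndufb4c (0.19, adjusted p = 0.257).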

How the data were processed

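RNA-seq of total RNA from 6 samples of mouse myocardium was used, grouped by the labels alone (3 AAV9-EGFP controls, 3 AAV9-anti-miR-199a TuDs). Per the submitters' processing notes, HISAT2 2.0.5 and featureCounts 1.5.0-p3 were used with mm10, and the annotation release and strand setting are not given in the sources used here. The values deposited by the authors are FPKM of 54532 genes, beside a length in bases for every gene. FPKM times gene length, divided by a step fitted to each library, came within 0.05 of a whole read for 100% of values above 0. The library size implied by that step was 1.06, 1.06 and 1.04 times the recovered reads in control replicates 1 to 3. In TuD replicates 1 to 3 it was 0.946, 0.943 and 1.01 times.

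Size factors by the median-of-ratios method, from genes at 1 or more in all 6 libraries, were divided out of the FPKM. Genes with FPKM of at least 1 in at least 3 libraries (10460) were fitted with limma 3.58.1 (R 4.3.3, eBayes with trend) on log2(value + 0.5). A fold change on this scale understates that of low genes. Two-sided p-values were adjusted by Benjamini-Hochberg across the tested genes, and the threshold was 0.05. The fit was tested on simulated data. Because FPKM are no counts, a count model served only as an alternative.

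Length trends were lowess fits (span 0.3) of each library's deviations. All members were named by role. Values per library were given for the core subunits, Ndufab1, Ndufa4, the 4 highest and 4 lowest fold changes of each accessory group and the X-linked members, with up to 4 genes by p from other lists. The values per library of Ndufs4, Ndufa8 and Ndufb5, and Myl2, Myh6 and Adipoq were chosen after their values were seen. The members and lists were chosen with earlier results of these data known. Exact tests over 3 against 3 samples cannot go below a p of 0.1 and were not used. A further gene of the lists is not reported here.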

Additional observations from a re-analysis of the deposited data

How the results depend on the processing

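Of 20 alternatives, the deposited FPKM without further scaling, pseudocounts of 0.1 and 1, a filter at FPKM 5, limma-voom on the recovered reads, robust eBayes, protein-coding genes only and the replicate block left 28 or 29 members higher and none lower. Of the genes tested in each of these fits, 14.0% to 21.2% were called higher. The same replicate number did not go with shared deviations between groups (correlations 0.06, 0.09 and -0.06, and not every sample was closest to its own number), and the replicate block left 28 members higher, ending the call of 1 member, Ndufb4 (adjusted p = 0.0580). Among the other genes listed it ended Sdhb (0.0522), Foxred1 (0.0517) and Hba-a1 (0.0519) and added mt-Nd6 (0.0200), C1qa (0.0420) and Dcn (0.0424).

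Rescaled to TPM, 14 members were higher and 2 lower (438 and 4202 of all tested genes) with a median of 0.30, and the fold change turned negative for Ndufa9 (-0.19), Ndufa12 (-0.24), Ndufb8 (-0.086), Ndufs3 (-0.13), Ndufs8 (-0.031), Sdhc (-0.28) and Sdhd (-0.36). With quantile normalization 1 member was lower, the median was 0.36 and the correlation with gene length -0.183, and Ndufa9 (-0.16), Ndufa12 (-0.12), Ndufs3 (-0.034), Ndufs8 (-0.048), Sdhc (-0.18) and Sdhd (-0.39) turned. With no filter 24 members were higher, 1010.0 tested genes were higher and 956 lower, and 3 assembly factors and 0 mitochondrially encoded subunits passed.

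With the gene length trend removed the median was 0.43, the correlation 0.160 and 0 mitochondrially encoded subunits passed, and Ndufa12 (-0.11), Ndufs8 (-0.043) and Sdhd (-0.31) turned. With the transcript length trend removed 15 members were higher and 1 lower, 1016 tested genes were higher, the median was 0.21, the correlation 0.104 and 0 mitochondrially encoded subunits passed. Ndufa7 (-0.12), Ndufa9 (-0.0080), Ndufa12 (-0.19), Ndufb8 (-0.29), Ndufb10 (-0.050), Ndufs3 (-0.12), Ndufs8 (-0.037), Ndufaf2 (-0.020) and Sdhd (-0.26) turned. With the Y-linked covariate 11 members were higher and 1 lower, 651 tested genes were higher and 529 lower, the correlation was -0.261, 0 assembly factors and 0 mitochondrially encoded subunits passed, and Ndufa12 (-0.83) and Ndufs1 (0.080) turned.

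Leaving out 1 library at a time gave 23 to 31 members higher and none lower, medians of 0.57 to 0.81, 892 to 1704 tested genes higher and 747 to 1605 lower (968 and 876 without control replicate 3, 997 lower without TuD replicate 1, and the lowest counts without control replicate 2), 2 to 7 assembly factors and 0 to 4 mitochondrially encoded subunits passing, and ranges of -0.12 to 0.64 for Ndufa12 (-0.068 without TuD replicate 2) and -0.10 to 0.11 for Sdhd (-0.015 without control replicate 1). The cause of each of these changes was not tested, save that the length corrections remove the length trend by construction. With 3 libraries a group and 1 TuD library unlike the other two in Y-linked transcripts, small differences in single members were not resolved. Members other than Ndufb2 had at least 1987 reads in every library.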
